A study of Mus musculus with 12 samples.

Results

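The question examined here is whether the duodenal response to the pentapeptide IIAEK, named by its amino acids in one-letter code, differed between Akp3 knockout and wild-type mice. The quantity is the difference between genotypes in the IIAEK effect, that is, IIAEK minus vehicle in the knockout minus IIAEK minus vehicle in wild type, on the log2 scale. It uses all 12 arrays of the series, 1 array per mouse, in 4 groups of 3 formed by genotype and treatment, and it was computed for each of 26107 features, 15583 of them named genes. The groups were Akp3-/- mice (called IAP knockout in the labels) given IIAEK, Akp3-/- mice given vehicle, wild-type mice given IIAEK and wild-type mice given vehicle. The oral dose of IIAEK was 600 mg per kg body weight per day over 14 days, and the vehicle contained carboxymethylcellulose, as its sodium salt, at 5 g/L. All mice were male, 7 weeks old and fasted for 8 h before whole duodenum was taken. The source labels of the IIAEK samples give their dosing time in weeks, whereas the titles and the design give days for every group, and days are used here. The making of the knockout allele, the strain, litters and cages are not given in the sources used here, so p-values measure only the spread between these samples.

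Intestinal alkaline phosphatase sits on the brush border, where it takes phosphate off bacterial endotoxin, nucleotides and other substrates, and it is secreted into the lumen and the lymph in connection with fat absorption. Mice carry several such genes, among them Akp3, a duodenal form, Alpi, a form expressed along the small intestine, and Alppl2, an embryonic form; Alpl encodes the tissue-nonspecific enzyme. IIAEK is a peptide derived from the milk protein beta-lactoglobulin and is known for lowering blood cholesterol in rodents. If a response to IIAEK requires Akp3, it should be present in wild type and absent or different in the knockout, which is what the difference between genotypes measures.

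Levels are log2 intensities relative to the 75th percentile of the array, so that 0 is that percentile. The targeted gene matched the labels on every array. Akp3 was at -4.64, -4.42 and -4.90 in knockout mice under IIAEK, -4.01, -3.80 and -4.23 in knockout mice under vehicle, 1.29, 1.05 and 2.72 in wild-type mice under IIAEK, and 2.27, 2.04 and 1.70 in wild-type mice under vehicle. Only 1 of 3 knockout IIAEK arrays and 2 of 3 knockout vehicle arrays were well above background for Akp3, so its IIAEK effect in the knockout was taken near the detection limit.

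Enterocyte markers were high on all arrays, with a mean level over 11 markers of 7.31 to 8.05. The samples were unequal in markers of stomach and Brunner's gland, pancreas and smooth muscle, as the plot of list means by array shows. The mucous list does not tell stomach from Brunner's gland. The mean of 9 mucous markers of stomach and Brunner's gland was 4.34 on knockout IIAEK array 3, 3.20 on knockout vehicle array 1, 4.89 on wild-type IIAEK array 3 and 3.28, 3.29 and 3.65 on the wild-type vehicle arrays, against -2.92 to -1.51 on the other 6. Pancreas markers (27 genes) averaged 2.34 on wild-type vehicle array 1 and 6.81 to 8.85 on the other 11. Smooth muscle markers averaged 3.66 on knockout IIAEK array 3 and 1.97 to 3.02 elsewhere. The arrays lay on 2 slides, 7 on the first and 5 on the second. Knockout IIAEK array 3, knockout vehicle arrays 2 and 3, wild-type IIAEK array 3 and wild-type vehicle array 3 were on the second slide. In bulk tissue, fewer cells of a type and less RNA per cell cannot be told apart.

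**Figure D1:**
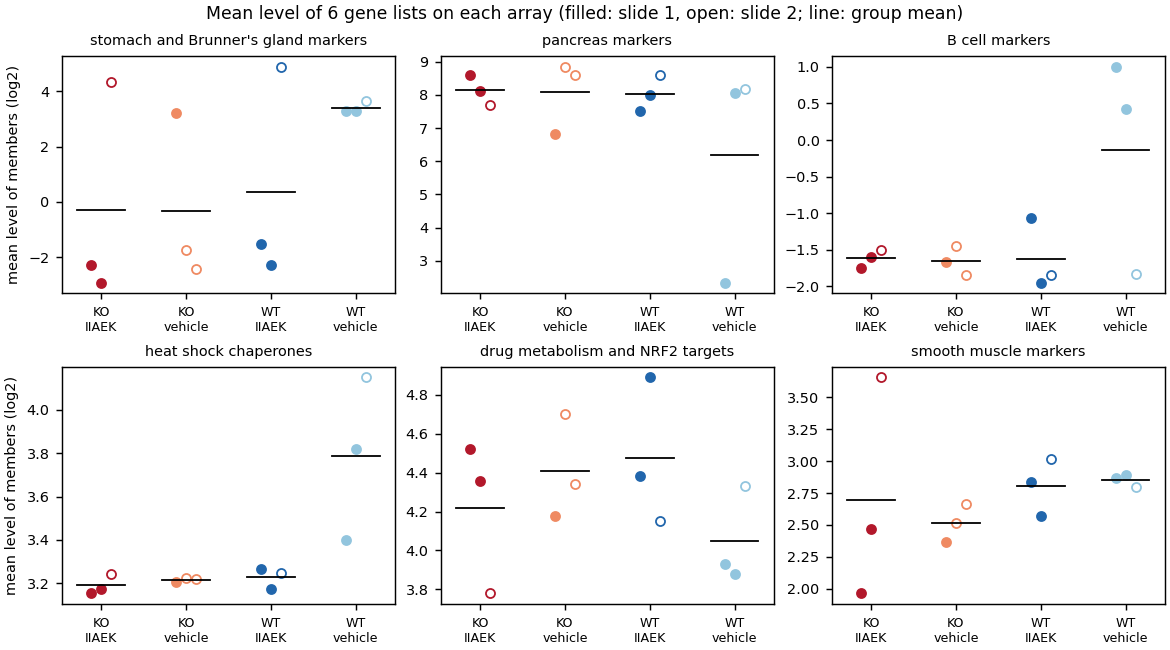
Mean level (log2 intensity relative to the 75th percentile, 0 = that percentile) of 6 gene lists on each array, in knockout IIAEK, knockout vehicle, wild-type IIAEK and wild-type vehicle mice; filled points are arrays of slide 1, open points arrays of slide 2, and lines are group means. Stomach and Brunner's gland markers lie above 3 on 6 arrays and below -1 on the other 6. Heat shock chaperones are highest on the wild-type vehicle arrays, and B cell markers are high on 2 of the 3 wild-type vehicle arrays.

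No feature had an IIAEK effect that differed between the genotypes at an adjusted p under 0.05. With limma and Benjamini-Hochberg adjustment, 0 of 26107 features (0%) were called, and the smallest adjusted p was 0.99999. At an unadjusted p under 0.05, 154 features (0.59%) lay above 0, which means a higher IIAEK effect in the knockout. Below 0 lay 244 (0.935%), which makes 398 (1.52%) in all. This share is smaller than the threshold of 0.05, which is the share expected if no feature differed. With slide as a fixed block the counts were 554 above and 769 below 0. The reason for the low share was not tested. The smallest unadjusted p was 0.000624. The absolute difference had a median of 0.19 and a 90th percentile of 0.58, and 756 features (2.90%) exceeded 1, which is a change of the IIAEK effect by a factor of 2.

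The test could not see small differences. The median standard error was 0.34, against 0.24 for the IIAEK effect within 1 genotype, and the median half-width of the 95% confidence interval was 0.76. For 13756 features (52.7%) the interval lay entirely between -1 and 1, so for these a difference above that size is outside the interval, whereas for the other features the interval reaches beyond it. The median difference over all features was -0.04.

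The IIAEK effects of the genotypes bore little relation to each other across features, as the plot of knockout against wild-type effects shows. Their Pearson correlation was 0.0835 (Spearman 0.0859), and 52.9% of features had the same sign in both. This is a description across features, which are not independent replicates. Within slide 1, which holds 2 knockout IIAEK, 1 knockout vehicle, 2 wild-type IIAEK and 2 wild-type vehicle arrays, the correlation was 0.617 and 69.6% of signs were shared. Within slide 2 it was -0.0178, and with slide as a block it was -0.0359. On slide 1, the mean stomach marker level was below -1 on all 4 IIAEK arrays and above 3 on all 3 vehicle arrays, in both genotypes alike. On slide 2, it was high on knockout IIAEK, wild-type IIAEK and wild-type vehicle and low on both knockout vehicle arrays. The part of these markers in the correlations was not tested beyond a fit with stomach and pancreas means as covariates, in which the correlation was 0.10. That fit used all 12 arrays, for which the correlation without covariates was 0.0835, and no such fit was made within slide 1.

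**Figure D2:**
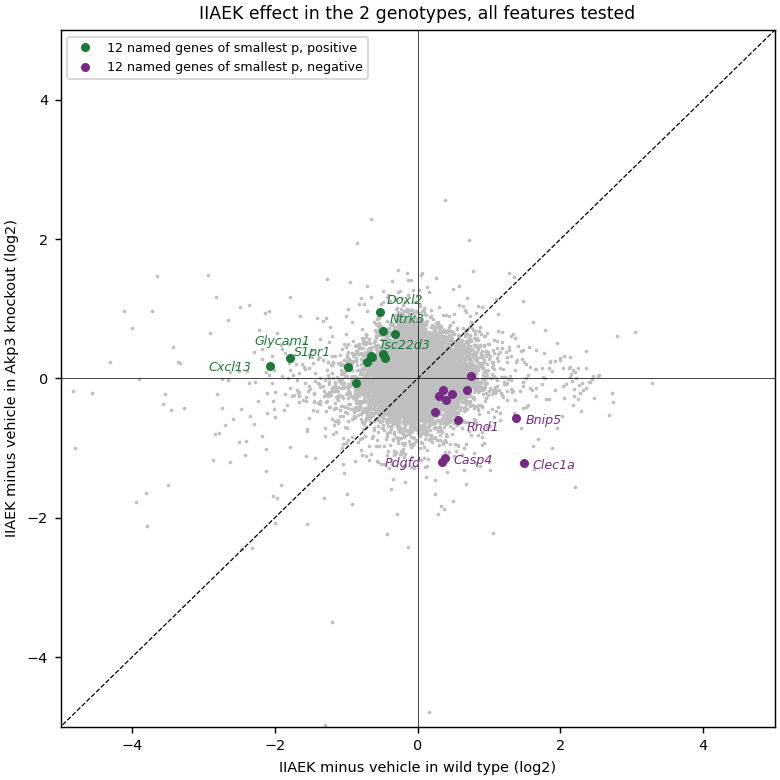
IIAEK minus vehicle (log2) in the knockout (vertical axis) and in wild type (horizontal axis) for 26107 features in grey; 1 feature lies outside the limits of 5. The 12 named genes of smallest p with a positive difference between genotypes (green) and the 12 with a negative one (purple) lie on either side of the dashed line of equal effects, and none was called.

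Since nothing passed the test, the genes nearest to it are given as values, not as findings. They are the 12 named genes of smallest p in each direction, with unadjusted p from limma of 0.000632 to 0.00877 below 0 and 0.00220 to 0.0111 above 0. They were picked by p in these same arrays, so their sizes are no independent estimate. The IIAEK effects had opposite signs in the genotypes for 11 of the 12 in each direction, whereas 52.9% of all features had the same sign in both. Picking genes by the p of this difference favours opposite signs, so the count does not show reversed responses.

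Below 0, Bnip5 had the smallest p among named genes. Its level was -0.67, -0.32 and -1.05 in knockout mice under IIAEK, against -0.25, -0.04 and -0.03 under vehicle. In wild type it was -0.03, 0.36 and 0.14 under IIAEK, against -0.80, -0.90 and -1.98 under vehicle. IIAEK and vehicle arrays did not overlap in either genotype, and they were ordered in opposite ways. The difference between genotypes was -1.95 ± 0.42 (SE; 95% interval -2.87 to -1.04; adjusted p = 0.99999 by limma), -1.26 within slide 1 and -3.14 within slide 2.

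Casp4, the inflammatory caspase that recognises endotoxin in the cytosol, was at 3.21, 2.88 and 2.07 in knockout mice under IIAEK and at 3.56, 3.92 and 4.11 under vehicle. In wild type it was at 3.30, 3.27 and 2.91 under IIAEK and at 3.17, 2.66 and 2.50 under vehicle. Knockout vehicle arrays lay above all other arrays, and the other 3 groups overlapped one another. Its difference was -1.53 ± 0.40 (SE), made up of -1.15 in the knockout and 0.38 in wild type, with -0.88 within slide 1 and -2.36 within slide 2.

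Fosl2, a transcription factor of the Fos family, showed a small but tight pattern. It was at 2.77, 2.77 and 2.71 in knockout mice under IIAEK and at 2.81, 2.97 and 2.95 under vehicle, against 3.22, 3.17 and 3.31 in wild type under IIAEK and 2.92, 2.89 and 2.82 under vehicle. Both genotypes separated without overlap and in opposite directions, with a difference of -0.52 ± 0.15 (SE). A second Fosl2 probe did not share it, with a difference of 0.31 ± 0.68 (SE).

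Slc6a20a, an epithelial transporter of proline and related amino acids, was at 2.45, 2.84 and 2.61 in knockout mice under IIAEK and at 2.47, 3.06 and 2.87 under vehicle. In wild type it was at 3.18, 3.23 and 3.07 under IIAEK, all above the 2.26, 2.34 and 2.81 under vehicle. The knockout groups overlapped, and the difference was -0.86 ± 0.27 (SE). Chka, the choline kinase that begins phosphatidylcholine synthesis, had -0.55 ± 0.17 (SE), and its other 2 probes gave -0.88 and -0.57.

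The other genes below 0 were Clec1a, a C-type lectin receptor (-2.70), Pdgfd, a growth factor of the platelet-derived family (-1.54), Rnd1, a small GTP-binding protein (-1.17), Lhfpl2 (-0.72), Bbc3, a promoter of apoptosis (-0.71), Pde9a, a cyclic GMP phosphodiesterase (-0.71), and Osbpl10, of the oxysterol-binding protein family (-0.70). Clec1a and Pdgfd were dim. Clec1a was not well above background on any wild-type vehicle array, and its level was at least 1.46-fold higher in wild type under IIAEK than under vehicle. On knockout IIAEK arrays Pdgfd was never well above background, and it was at least 1.59-fold lower there than in knockout mice under vehicle. For these bounds each dim array was set at its own signal or at the weakest signal that still stood well above background, whichever was higher.

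**Figure D3:**
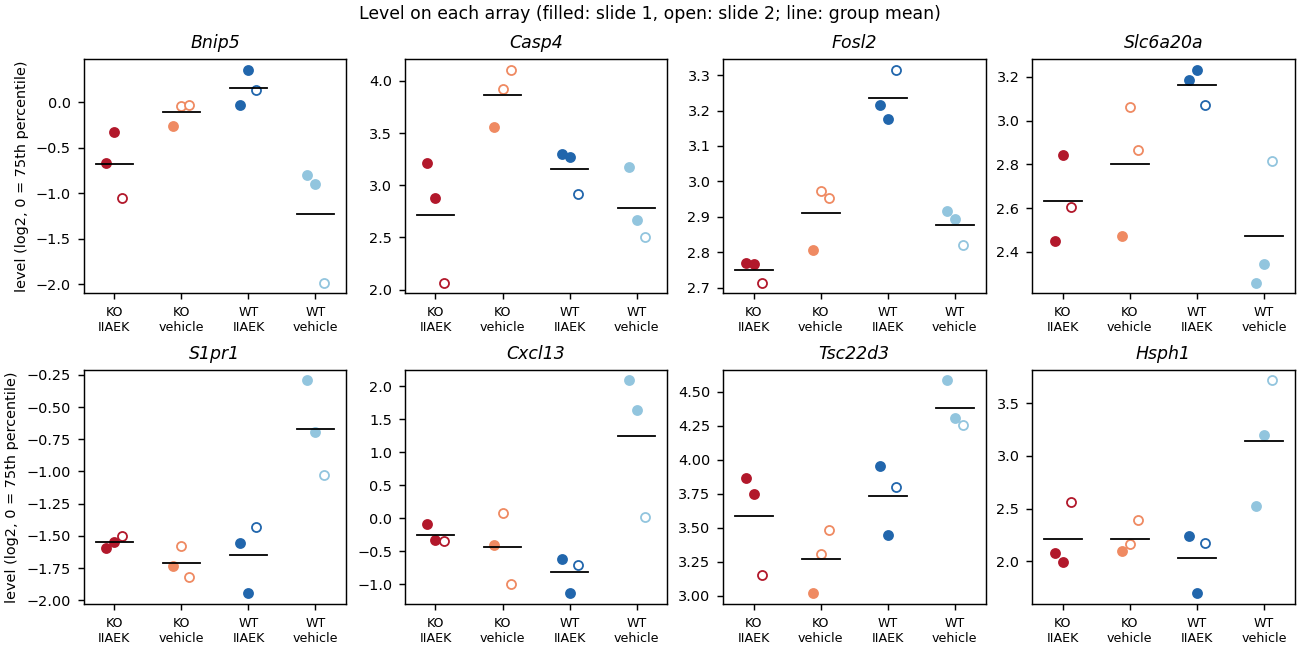
Level (log2 intensity relative to the 75th percentile) of 8 genes on each array of the 4 groups, in knockout IIAEK, knockout vehicle, wild-type IIAEK and wild-type vehicle mice; filled points are slide 1, open points slide 2, and lines are group means. Bnip5 and Fosl2 separate IIAEK from vehicle in opposite directions in the genotypes. S1pr1 differs mainly through high wild-type vehicle arrays, and Cxcl13 and Hsph1 mainly through some of these arrays.

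Above 0, several of the 12 genes were set apart by the wild-type vehicle mice. S1pr1, the sphingosine 1-phosphate receptor of lymphocytes and endothelium, had the smallest p. It was at -1.60, -1.55 and -1.50 in knockout mice under IIAEK, -1.74, -1.58 and -1.82 in knockout mice under vehicle, -1.56, -1.95 and -1.43 in wild type under IIAEK, and -0.29, -0.69 and -1.03 in wild type under vehicle. The wild-type vehicle arrays were above the other 9, the knockout groups overlapped, and the difference was 1.14 ± 0.29 (SE; 95% interval 0.51 to 1.77), with 1.43 within slide 1 and 0.60 within slide 2.

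Cxcl13, the chemokine that draws B cells into follicles, was at -0.08, -0.33 and -0.35 in knockout mice under IIAEK and at -0.40, 0.08 and -0.99 under vehicle. In wild type it was at -0.62, -1.14 and -0.70 under IIAEK and at 2.09, 1.64 and 0.02 under vehicle. High values were those of wild-type vehicle arrays 1 and 2, and the difference of 2.25 ± 0.63 (SE) was 2.94 within slide 1 and 0.82 within slide 2. Glycam1, a mucin-like ligand on the venules through which lymphocytes enter lymphoid tissue, had the same 2 high arrays.

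Glycam1 was at -2.43, -2.39 and -2.24 in knockout mice under IIAEK, -2.71, -2.78 and -2.47 in knockout mice under vehicle, -2.41, -2.75 and -2.44 in wild type under IIAEK and 0.15, -0.32 and -2.08 in wild type under vehicle. The groups did not overlap in either genotype, and the difference was 2.08 ± 0.62 (SE). Without wild-type vehicle array 3 it was 2.75 with an adjusted p of 0.0454 by limma, the only call under that omission. The omitted array was the only wild-type vehicle array without the high level. Glycam1 was also picked by p in these same arrays, so the call is no independent support. The 12 B cell markers, of which Cxcl13 is one, averaged 1.0 and 0.42 on wild-type vehicle arrays 1 and 2 and -1.95 to -1.07 on the other 10, and the part of lymphoid tissue in these 3 genes was not tested.

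Among the remaining genes above 0, Tsc22d3, a glucocorticoid-induced leucine zipper protein, was at 3.86, 3.75 and 3.15 in knockout mice under IIAEK and at 3.02, 3.31 and 3.49 under vehicle. In wild type it was at 3.95, 3.45 and 3.80 under IIAEK and at 4.59, 4.31 and 4.25 under vehicle. The wild-type groups separated, the knockout groups overlapped, and the difference was 0.97 ± 0.30 (SE), with 1.53 within slide 1 and 0.21 within slide 2. The others were Doxl2 (1.49), Ntrk3, a neurotrophin receptor (1.17), Fam89a (0.96), Ppan, a ribosome assembly factor (0.96), Aif1l (0.95), Pik3ip1, an inhibitor of phosphoinositide kinase signalling (0.85), Slc5a3, the sodium-coupled inositol transporter (0.81), and Tppp, a tubulin-binding protein (0.76). A second Slc5a3 probe gave 0.38.

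Crossed effects, in which IIAEK and vehicle arrays did not overlap in either genotype and ran in opposite directions, were found for 47 features (0.18%), 18 of them named. The knockout was lower and wild type higher under IIAEK in 13 of these 18, and the reverse held in 5. Non-overlap in the same direction in both genotypes was found for 130 features (0.498%). For comparison, 1221 features (4.68%) did not overlap in the knockout and 2422 (9.28%) did not in wild type. With so few arrays per group, non-overlap also arises by chance, in the same or in opposite directions. The shares expected by chance were not computed. The counts of crossed features and the split of 13 and 5 therefore do not show a class of genes with crossed responses. The 10 crossed named genes of smallest p were Bnip5, Fosl2, Pde9a, Chka, Tppp, Glycam1, Ntrk3, Myzap (-1.05), Zfp941 (-0.83) and Ces2b (-0.82).

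Ces2b, a carboxylesterase of the intestine that cleaves ester drugs and lipids, was at 6.02, 6.04 and 5.60 in knockout mice under IIAEK and at 6.05, 6.27 and 6.20 under vehicle, against 5.96, 6.31 and 5.97 in wild type under IIAEK and 5.39, 5.29 and 5.93 under vehicle. The groups nearly touched, with nearest arrays at 6.04 under IIAEK and 6.05 under vehicle in the knockout, and at 5.96 under IIAEK and 5.93 under vehicle in wild type.

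None of the genes of prior interest, the phosphatases and the main carriers of sterols and peptides, had a difference past the test. For Akp3 itself the difference was -0.33 ± 0.52 (SE; 95% interval -1.47 to 0.81), its second probe gave 0.05, and it was 0.46 within slide 1 and -1.91 within slide 2. Alpi was well above background on all arrays, at 6.11, 6.41 and 6.74 in knockout mice under IIAEK, 6.54, 6.59 and 6.58 in knockout mice under vehicle, 6.65, 6.48 and 7.49 in wild type under IIAEK and 6.60, 6.72 and 7.16 in wild type under vehicle. The groups overlapped in both genotypes, with a difference of -0.20 ± 0.37 (SE; -1.01 to 0.62). Alpl gave -0.19 (-0.97 to 0.59) and Alppl2 gave 0.10 (-1.30 to 1.50), so for none of the 4 phosphatase genes does the interval leave out a difference of 0.5 in either direction.

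Cholesterol enters the enterocyte through Npc1l1, is returned to the lumen by the half-transporters Abcg5 and Abcg8, is esterified by Soat2 and is exported to high density lipoprotein by Abca1. Npc1l1 had the narrowest interval of these 5 genes. It was at 3.68, 4.03 and 4.12 in knockout mice under IIAEK, 3.82, 3.91 and 4.02 in knockout mice under vehicle, 4.50, 4.10 and 4.14 in wild type under IIAEK and 4.15, 4.0 and 4.14 in wild type under vehicle. The groups overlapped in both genotypes, and the difference was -0.12 ± 0.22 (SE; -0.60 to 0.36).

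Abcg5 was at 7.53, 7.46 and 7.02 in knockout mice under IIAEK and at 7.61, 7.20 and 7.42 under vehicle, against 8.03, 8.04 and 7.51 in wild type under IIAEK and 7.59, 7.56 and 7.11 under vehicle. Abcg8 was at 3.91, 4.03 and 4.34 in knockout mice under IIAEK and at 4.11, 3.84 and 3.96 under vehicle, against 5.17, 4.53 and 4.58 in wild type under IIAEK and 4.42, 4.33 and 3.68 under vehicle. Abcg8 separated in wild type, Abcg5 overlapped there by a single array, and both overlapped in the knockout. The difference was -0.51 ± 0.30 (SE; -1.18 to 0.15) for Abcg5 and -0.49 ± 0.32 (SE; -1.20 to 0.22) for Abcg8. Within slides 1 and 2 it was -0.58 and -0.69 for Abcg5 and -0.60 and -0.47 for Abcg8. Both intervals hold 0 and also a difference of -1.

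Soat2 had -0.72 (-1.50 to 0.07) and Abca1 -0.19 (-0.95 to 0.56). Of 11 genes of sterol uptake and efflux, 4 lay above 0 and 7 below, with a median of -0.12 (-0.17 to -0.03 over omissions of single arrays), none called and none at an unadjusted p under 0.05. Cholesterol synthesis genes were split, with 11 of 23 above 0 and a median of -0.02 (-0.10 to 0.16 over omissions of single arrays). Sc5d, a late enzyme of the pathway, had -0.50, with an unadjusted p over 0.05.

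Slc15a1, the apical transporter of dipeptides and tripeptides, had the widest interval of the genes of prior interest. It was at 0.39, 0.23 and -1.97 in knockout mice under IIAEK, -0.65, -1.32 and -1.86 in knockout mice under vehicle, -0.37, -0.10 and -1.48 in wild type under IIAEK and -0.49, -0.53 and -1.30 in wild type under vehicle. Array 3 of each of the 4 groups, all on slide 2, was the lowest of its group. The difference was 0.70 ± 0.84 (SE; -1.15 to 2.55), which turned to -0.20 within slide 2.

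**Figure D4:**
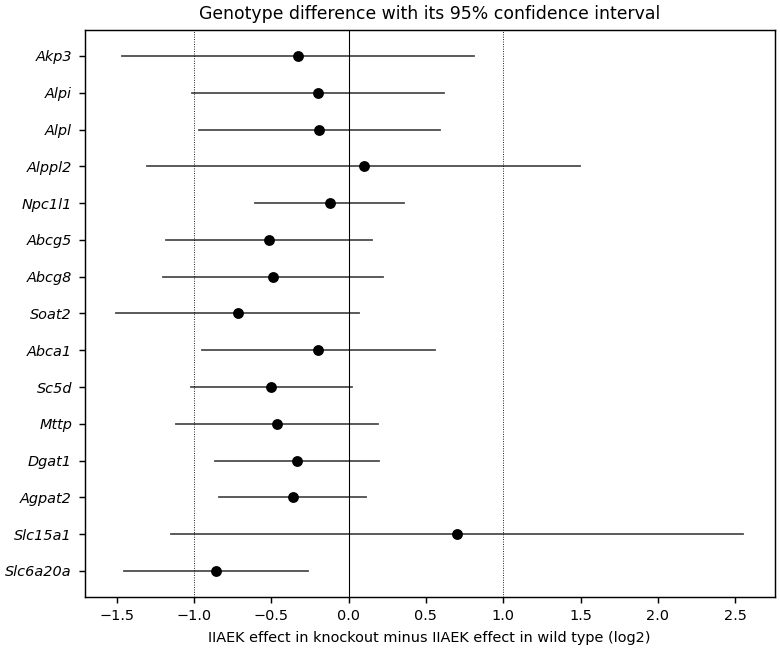
Difference between genotypes in the IIAEK effect (log2, knockout minus wild type; points) with its 95% confidence interval (lines) for 15 genes: alkaline phosphatases, sterol transport and esterification, cholesterol synthesis, fat absorption, and 2 transporters of peptides or amino acids. Dotted lines mark -1 and 1. Every interval but that of Slc6a20a includes 0, and those of Alpl, Npc1l1, Abca1, Dgat1 and Agpat2 stay between the dotted lines.

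Fat absorption genes, whose products re-esterify fatty acids and load chylomicrons, leaned to one side. Of 18 members 17 lay below 0, with a median of -0.28, and the median IIAEK effect was -0.07 in the knockout and 0.17 in wild type. Mttp, which loads triglyceride onto apolipoprotein B, had -0.46, Agpat2, an enzyme of triglyceride synthesis, -0.36, and Dgat1, which completes triglycerides, -0.33. None was called or had an unadjusted p under 0.05, and without knockout IIAEK array 3, the array rich in stomach and smooth muscle markers, the median was -0.05. Without wild-type vehicle array 3 it was -0.47.

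Lists of absorptive cell genes and of junctions and mitochondria also lay mostly below 0. Enterocyte markers lay below 0 in 11 of 11 (median -0.22) and brush border enzymes in 14 of 15 (median -0.34). Tight junction genes lay below 0 in 13 of 16 (median -0.24) and oxidative phosphorylation genes in 36 of 38 (median -0.18), against 14606 of all 26107 features and a median of -0.04. Without knockout IIAEK array 3, the median was 0.01 for enterocyte markers, -0.01 for brush border enzymes, -0.19 for tight junctions and -0.02 for oxidative phosphorylation. With stomach and pancreas marker means as covariates the median was 0.06 for enterocyte markers, 0.02 for brush border enzymes, -0.22 for tight junctions and -0.08 for oxidative phosphorylation. Scaling also moved oxidative phosphorylation. Its median was -0.07 with quantile normalization of processed intensity (11 of 38 above 0) and -0.25 with median scaling (0 of 38 above 0). Without wild-type vehicle array 3 the median was -0.51 for enterocyte markers and -0.53 for brush border enzymes. Smooth muscle markers lay above 0 in 13 of 13 (median 0.25), and without knockout IIAEK array 3 their median was -0.24.

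Lists of the other epithelial cell types did not share that sign. Paneth cell markers lay above 0 in 7 of 7 (median 0.39), intestinal stem cell genes in 11 of 15 (0.27), tuft cell markers in 8 of 12 (0.14) and enteroendocrine markers in 9 of 16 (0.10), while goblet cell markers were split 5 and 5 (-0.0078). No member of these 5 lists had an unadjusted p under 0.05. The Paneth cell median was 0.03 without knockout vehicle array 2, and the stem cell median was 0.09 without knockout IIAEK array 3 and -0.07 within slide 1. Over omissions of single arrays the median ran from 0.03 to 0.17 for tuft cells and from -0.04 to 0.27 for enteroendocrine cells. Cell cycle genes lay above 0 in 25 of 36 (median 0.13), with a median of 0.01 without knockout IIAEK array 3 and -0.01 within slide 1.

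**Figure D5:**
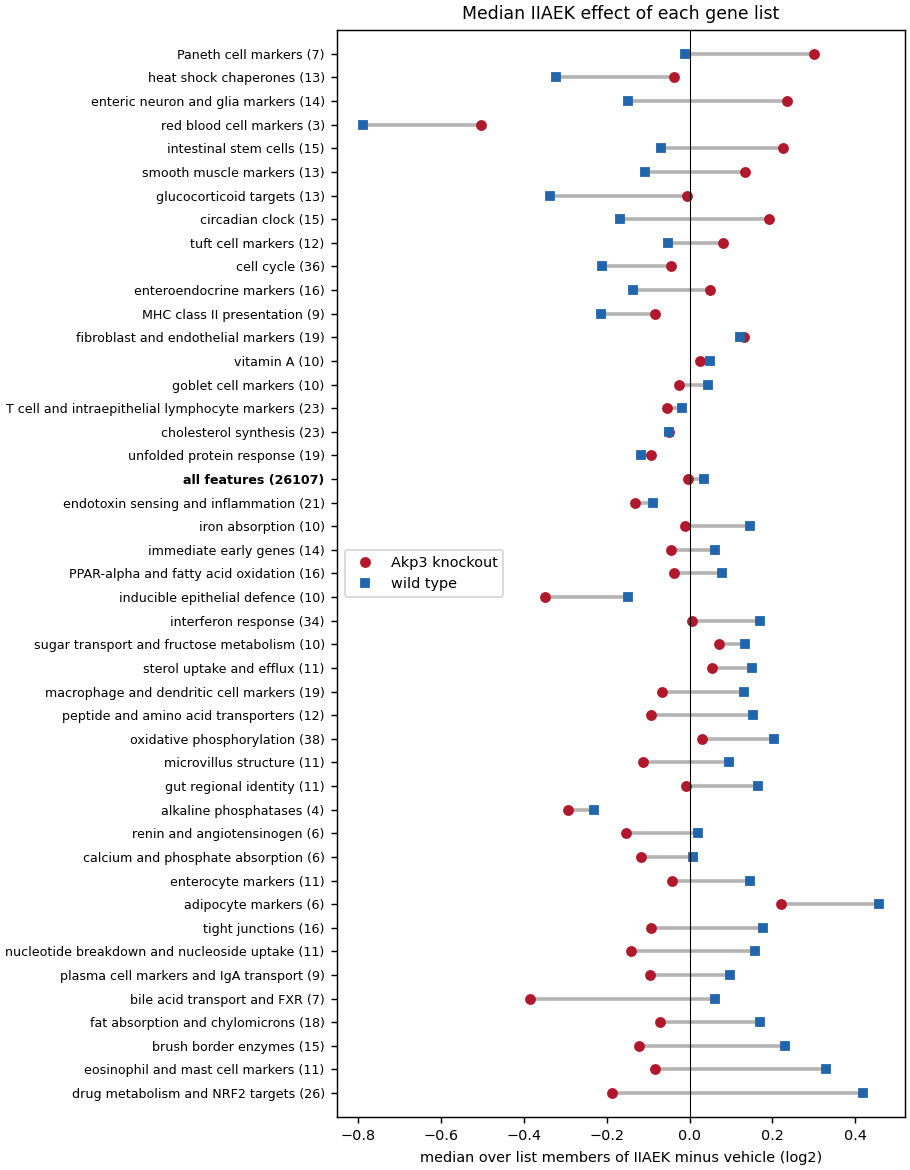
Median IIAEK minus vehicle effect (log2) over the members of each gene list in the knockout (circles) and in wild type (squares), ordered by the median difference between genotypes, with the number of members tested in brackets and all features in bold; stomach, gastric acid, pancreas and B cell markers are left out because their medians exceed the scale. Drug metabolism genes stand at the bottom (knockout -0.19, wild type 0.42) and Paneth cell and heat shock genes at the top.

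Drug metabolism and NRF2 target genes, which encode enzymes and pumps that modify and clear foreign compounds, had the lowest median among lists that mark no cell type. All 26 members tested lay below 0, with a median of -0.58, and the median IIAEK effect was -0.19 in the knockout and 0.42 in wild type. None was called, and 2 of 26 had an unadjusted p under 0.05, against 0.935% of all features on that side, of which 14606 of 26107 lay below 0. The difference was -0.50 for Gstt1, a glutathione transferase, -0.72 for Ces2c and -0.87 for Ces2a, both carboxylesterases.

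The list mean was 4.52, 4.36 and 3.78 on the knockout IIAEK arrays, 4.18, 4.70 and 4.34 on the knockout vehicle arrays, 4.38, 4.89 and 4.15 on the wild-type IIAEK arrays and 3.93, 3.88 and 4.33 on the wild-type vehicle arrays. Knockout IIAEK array 3 was the lowest of all and the groups overlapped in both genotypes. The median was -0.48 within slide 1 and -0.58 within slide 2, but -0.35 without knockout IIAEK array 3 and -0.31 with the stomach and pancreas covariates. Members of a list share mice and samples, so their common sign is not a count of independent observations.

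Heat shock chaperones, proteins that refold or hold damaged proteins and are induced together by heat shock factor, lay above 0 in all 13 genes, with a median of 0.37. None was called and 1 had an unadjusted p under 0.05, against 0.59% of all features above 0. Their mean level was 3.15, 3.17 and 3.24 in knockout mice under IIAEK, 3.20, 3.22 and 3.22 in knockout mice under vehicle, 3.26, 3.17 and 3.25 in wild type under IIAEK, and 3.40, 3.82 and 4.15 in wild type under vehicle. The wild-type vehicle arrays stood above the other 9, which lay between 3.15 and 3.26, and without wild-type vehicle array 3 the median difference was 0.19.

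The promoters of the 3 members of smallest p are shown because they share the recognition letters of heat shock factor. The motif searched was GAANNTTC or TTCNNGAA, which covers both strands, in the 250 bases before the start in the RefSeq table of build GRCm38.p6. Counted per gene, it was present for 7 of the 10 list members found in the table and for 3932 of all 27025 genes there (14.5%). The list was chosen as genes induced by heat shock factor, so a high share follows from that choice. The part of this factor in the levels on these arrays was not tested. The 150 bases before the start follow, with the motif in capitals, for Hsph1 (chr5:149636337-149636486, minus strand), Hspa1b (chr17:34959239-34959388, minus strand) and Hspa1a (chr17:34972157-34972306, minus strand).
Hsph1: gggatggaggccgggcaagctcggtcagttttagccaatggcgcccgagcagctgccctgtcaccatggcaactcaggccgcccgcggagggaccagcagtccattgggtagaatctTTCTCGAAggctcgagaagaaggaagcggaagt
Hspa1b: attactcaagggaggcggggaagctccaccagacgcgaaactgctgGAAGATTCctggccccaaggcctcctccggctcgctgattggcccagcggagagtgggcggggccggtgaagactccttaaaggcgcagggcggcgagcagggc
Hspa1a: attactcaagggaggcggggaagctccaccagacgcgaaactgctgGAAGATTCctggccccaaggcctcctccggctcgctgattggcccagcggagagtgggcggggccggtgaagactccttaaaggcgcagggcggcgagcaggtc
The motif began 33 bases before the start in Hsph1 and 104 bases before it in Hspa1b and Hspa1a, whose windows shared 149 of 150 bases. A match is a description of these letters and does not show binding.

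Hsph1, a large chaperone that works with the Hspa class, was at 2.08, 1.99 and 2.57 in knockout mice under IIAEK, 2.09, 2.16 and 2.39 in knockout mice under vehicle, 2.24, 1.70 and 2.17 in wild type under IIAEK and 2.52, 3.19 and 3.72 in wild type under vehicle. The wild-type groups did not overlap, the knockout groups did, and the difference was 1.10 ± 0.39 (SE), with 1.18 for a second probe. Hspa1b was at -1.06, 0.67 and 1.74 in wild type under vehicle and at or below -0.94 on the other 9 arrays, with a difference of 1.63 ± 0.81 (SE), and its wild-type groups overlapped. Hspa1a gave 1.51 ± 0.78 (SE). Hspa1a and Hspa1b are near-identical copies, so their probes may not tell them apart. Within slide 1 the difference was 1.0 for Hspa1b and 0.83 for Hspa1a, and within slide 2, where 3 of the 4 groups are 1 mouse each, it was 3.04 for Hspa1b and 3.09 for Hspa1a.

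Glucocorticoid targets, genes switched on by the stress steroid receptor, lay above 0 in 8 of 13, with a median of 0.17, and 3 of 13 had an unadjusted p under 0.05, against 0.59% of all features above 0. These were Tsc22d3, given above, Ddit4, an inhibitor of growth signalling (1.47), and Fkbp5, a receptor chaperone (0.99, and 1.90 for its second probe). Ddit4 was at 3.28, 3.39 and 2.66 in knockout mice under IIAEK, 2.21, 3.15 and 2.49 in knockout mice under vehicle, 3.73, 2.29 and 3.21 in wild type under IIAEK and 4.15, 4.10 and 3.92 in wild type under vehicle. Its wild-type vehicle arrays were again above all others. The list median was 0.51 within slide 1 and -0.44 within slide 2, so its direction was not the same on both slides, and it was -0.0015 without wild-type IIAEK array 2. Clock genes lay above 0 in 8 of 15 and below in 7 (median 0.14), with the ends at 1.26 for Hlf and -0.93 for Npas2. Their median was -0.08 without wild-type vehicle array 3 and -0.07 without knockout vehicle array 3.

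Among immune genes, the lists went different ways. B cell markers lay above 0 in 12 of 12, with a median of 1.16, which was 1.74 within slide 1, 0.23 within slide 2 and 1.90 without wild-type vehicle array 3. Of the 12 markers 1, Cxcl13, had an unadjusted p under 0.05, and the difference was 1.42 for Spib and 0.85 for Pax5, both transcription factors of the B lineage. Eosinophil and mast cell markers lay below 0 in 11 of 11, with a median of -0.50, and 3 of 11 had an unadjusted p under 0.05, against 0.935% of all features below 0. The median was -0.99 without wild-type IIAEK array 1, -0.93 without knockout vehicle array 2 and -0.13 with array weights.

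These 3 were Chil4 and Chil3, chitinase-like proteins of alternatively activated macrophages and epithelium, and Alox15, a lipoxygenase of eosinophils. Chil3 and Chil4 are thus no markers of eosinophils or mast cells, and no other member of the list had an unadjusted p under 0.05. The count of 3 is therefore no result about these cell types. Chil3 was at -4.39, -6.65 and -3.35 in knockout mice under IIAEK, 1.23, -0.99 and 0.29 in knockout mice under vehicle, -5.23, -5.39 and -1.53 in wild type under IIAEK and -2.37, -3.23 and -2.66 in wild type under vehicle. It was highest on the knockout vehicle arrays without overlap with any other group, and the difference was -3.68 ± 1.49 (SE), with 2 of 3 knockout IIAEK and 1 of 3 wild-type IIAEK arrays well above background. Chil4 was below that mark on all 3 knockout IIAEK arrays and was at least 11.4-fold lower there than under vehicle, with well-measured signal on 1 of 3 arrays in each wild-type group. Its fitted difference of -5.03 therefore rests on arrays near the detection limit. Alox15 was not well above background on any wild-type vehicle array and was at least 1.14-fold higher in wild type under IIAEK, while its knockout groups overlapped, at -4.22, -4.5 and -4.19 under IIAEK and -4.38, -4.35 and -4.0 under vehicle.

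Interferon response genes lay below 0 in 26 of 34, with a median of -0.12, and 2 of 34 had an unadjusted p under 0.05, against 0.935% of all features below 0. The direction was not stable: the median was 0.01 without knockout IIAEK array 3 (18 of 34 above 0), 0.04 within slide 1 and 0.10 with array weights (23 of 34 above 0). Cxcl9, a T cell chemokine induced by interferon gamma, had -0.89, and Irf1, a transcription factor of the same response, had -0.56. Genes of endotoxin sensing and inflammation, the pathway nearest to the substrate of the missing enzyme, lay below 0 in 14 of 21 with a median of -0.08, which was 0.0047 without knockout vehicle array 2 and 0.06 within slide 1. Nfkbiz, a regulator of NF-kappa-B target genes, had -0.67, and Ly96, the endotoxin co-receptor, had -0.54.

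The largest medians of any list, in either direction, belonged to markers of stomach and Brunner's gland, of gastric acid and pepsinogen, and of pancreas. The first of these lists does not tell stomach from Brunner's gland. Stomach and Brunner's gland mucous markers lay above 0 in 9 of 9, with a median of 3.48, and gastric acid and pepsinogen markers in 5 of 5, with a median of 1.67. Each list holds 10 genes, and probes were tested only if well above background throughout at least 1 group of 3. Wild-type vehicle was the only group with the mucous markers high on every array. Dim members could pass the filter through it, so the common sign is no independent support. With only probes well above background on all 12 arrays, the medians were 2.09 (4 members above 0) and 0.29 (2 members above 0). For Muc5ac, the surface mucin of the stomach, the difference was 4.41 ± 3.38 (SE), and for Gkn1, a secreted gastric protein, 3.88 ± 3.37 (SE). The stomach median was -0.12 within slide 1 and 5.30 within slide 2. Leaving out knockout IIAEK array 3 gave 0.69 for the stomach list and 0.20 for the gastric acid and pepsinogen list, which was 0.29 within slide 1.

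Pancreas markers lay below 0 in 27 of 27 with a median of -1.82, which was 0.18 without wild-type vehicle array 1. Cuzd1, a protein of pancreatic zymogen granules, was at 3.85, 3.25 and 1.96 in knockout mice under IIAEK, 1.61, 4.35 and 4.10 in knockout mice under vehicle, 2.10, 3.50 and 3.59 in wild type under IIAEK and -4.46, 3.39 and 2.04 in wild type under vehicle. Wild-type vehicle array 1 lay far below the other 11, and the fitted difference was -3.07 ± 2.28 (SE). No member of these 3 lists had an unadjusted p under 0.05. Which of the list differences given above move with the levels of these markers was not tested beyond the covariate fits.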

How the data were processed

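RNA of 12 duodena was measured on 12 one-colour Agilent arrays. Per the file headers, the authors scanned the arrays with Agilent Feature Extraction 10.7.3.1, and the deposited processed intensity is background-subtracted but not scaled between arrays. The authors' deposited value table holds log2 values. On every array it correlated at 0.99999 or more with log2 processed intensity after subtraction of the 75th percentile and of the probe median, so its scale, centring and direction are known and a probe's level cannot be read from it. Its column medians were 0.12, -0.04 and 0.08 (knockout IIAEK), -0.05, -0.09 and 0.09 (knockout vehicle), -0.06, 0.04 and 0.07 (wild-type IIAEK) and -0.07, -0.08 and 0.13 (wild-type vehicle).

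From the scanner files, control spots and outlier spots were left out, spots of a probe were averaged as log2 intensity, and the 75th percentile of the array was subtracted. Of 56583 probes kept, 32978 were named through unversioned accessions in a RefSeq gene table (GRCm38.p6), for 22905 genes, and 23605 kept no name. Probes detected well above background throughout at least 1 group of 3 were kept, and the brightest probe stood for a gene. Per array, 55.9% to 64.0% of probes passed that mark, no spot was saturated, and replicates correlated at 0.953 to 0.990. The number of arrays limits the precision.

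Group means and the contrast were estimated jointly on the 12 arrays by limma 3.58.1 (lmFit, eBayes with an intensity trend; R 4.3.3). Tests are two-sided with Benjamini-Hochberg adjustment over 26107 features, called at an adjusted p under 0.05. The procedure was tested on simulated data. Named genes are 9 of prior interest (4 phosphatases, Npc1l1, Abcg5, Abcg8, Abca1, Slc15a1), the 12 named genes of smallest p in each direction because under 10 were called, up to 10 whose arrays separate in opposite directions, and up to 3 members of smallest p in each of 48 lists. The 48 lists (721 genes, 672 tested) come from textbook knowledge; members and lists were chosen with earlier results of these data known. The alternatives were background correction, scaling, filter, probe choice, slide, replicate number, tissue covariates, array weights and single arrays left out. The raw mean signal was not used: the correction by normexp (offset 50) took the median spot signal. Withheld items are not reported here.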

Additional observations from a re-analysis of the deposited data

How the results depend on the processing

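The number of features called was 0 in 25 of 28 alternatives. It was 35 within slide 2 (18 above 0 and 17 below, 5 arrays, with 3 groups of 1 mouse and 1 residual degree of freedom, so these calls are not used), 2 with array weights, whose estimation did not converge, and 0 to 1 when single arrays were left out, the 1 being Glycam1 without wild-type vehicle array 3. The 35 include stomach genes such as Muc5ac (5.52) and Gkn1 (5.30), the pancreatic Cuzd1 (-3.80), Hspa1b (3.04), Hspa1a (3.09) and Bnip5 (-3.14). At an unadjusted p under 0.05 the counts above and below 0 were 154 and 244, against 554 and 769 with slide as a fixed block, 1904 and 1830 with array weights and 111 and 389 with median scaling, which moved the median of all features to -0.11.

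All 24 genes of smallest p kept their sign in every alternative that gave a value. The alternatives refit the same arrays from which these genes were picked, so a kept sign is no independent support. Of 2258 gene values 20 turned sign, in 7 genes, and none of these was called. Akp3 was 0.19 with normexp and quantile normalization, 0.46 within slide 1 and 0.27 with array weights. Alppl2 was -0.55 within slide 2, -0.27 and -0.10 with the stomach and pancreas or smooth muscle covariates, and -0.029 with array weights. Within slide 2 Alpl was 0.014, Npc1l1 0.15 and Slc15a1 -0.20, and within slide 1 Tmprss15 was 0.11. Over omissions of single arrays the range was -0.65 to 0.19 for Akp3, -0.39 to 0.11 for Alpi, -0.42 to 0.042 for Alpl, -0.31 to 0.71 for Alppl2 and -0.21 to 0.0085 for Npc1l1. The cause of these reversals was not tested.

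The samples share replicate numbers. Deviations from the group means correlated above 0.1 in 11 of 18 same-numbered pairs of arrays (range -0.25 to 0.70). They did so in 12 of 36 pairs of other numbers (-0.72 to 0.65) and in 19 of 27 pairs on the same slide (-0.22 to 0.70). The numbers were not taken as pairs, and the main fit has no slide term. The part of the slide in the same-numbered correlations was not tested. With the replicate block 0 features were called, with 245 above and 325 below 0 at an unadjusted p under 0.05.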
